A study of Homo sapiens with 8 samples.

Results

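The 46 genes described here encode the proteins that take a cell through mitosis, with the condensin complex that folds its chromosomes. They were found by matching the gene symbols of a list of mitotic and condensin genes to the symbol column of both count tables, which hold 18638 gene models, and all 46 were found in both. Every one of them was also tested in both comparisons. The list is made up of 6 cyclins and kinases of mitotic entry, 8 genes of the spindle checkpoint and anaphase, 4 of the chromosomal passenger complex, 6 of the centromere and kinetochore, 7 kinesins, 6 other spindle proteins, 2 of cytokinesis, 5 condensin subunits, and FOXM1 with MKI67.

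Nascent RNA had been collected by factory-seq, in which RNA held at sites of transcription is freed from washed nuclei by caspases, in bulk. There were 4 groups of 2 libraries. DLD-1, a human colorectal adenocarcinoma line, carried an auxin-inducible degron and a fluorescent tag on POLR2A, the gene of the largest RNA polymerase II subunit RPB1 (mAID-mClover-POLR2A), with the TIR1 protein that the degron needs under a Tet promoter (Tet-OsTIR1). One DLD-1 group was left as control and the other was given auxin for 14 h. HCT116, a human colorectal carcinoma line, carried the degron on TOP2A, a topoisomerase that relieves tangles in DNA. One HCT116 group was TOP2A-mAID control, and the other was labelled TOP2B-/- as well, with the related enzyme knocked out. The labels of that group conflict, with a control in its titles but auxin for 14 h under treatment and auxin, without a time, in the count columns. The group is therefore named here by its genotype, and genotype and auxin cannot be told apart in it. Per the protocol, doxycycline for 24 h induces TIR1 before 500 µM auxin is added, and the labels do not say whether control cells were given doxycycline. Every title describes asynchronous cells, and a sort for G1 cells is mentioned where applicable without being tied to these libraries. Neither the number of clones nor whether replicates were separate cultures is given, so p-values measure only the spread between these libraries.

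Mitotic genes are switched on late in each cell cycle. In quiescent and early cycling cells the DREAM complex holds them silent, mostly through a short promoter element called the CHR, and later the MuvB core of that complex joins B-MYB and FOXM1 to activate them, with NF-Y bound at nearby CCAAT boxes. Since their transcription peaks in G2 and M, their nascent RNA in a bulk sample depends both on how many cells are in those phases and on how much each cell transcribes, and the 2 cannot be told apart here. They are widely used as a readout of proliferation in colorectal tumour cells.

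Total counts were 10739622 and 14183633 in the DLD-1 auxin libraries, 36906755 and 62626875 in the DLD-1 controls, and between 32129400 and 36491540 in HCT116. Reads were also found in genes that are silent in the other cell line, which gives a background density per kb. At that density over all gene models, background made up 2.25% and 9.05% of reads in the DLD-1 controls, 39.5% and 59.7% in the auxin libraries, and between 0.273% and 3.06% in HCT116. Of 10 colon epithelial markers, 9 and 8 lay over 2 times background in the DLD-1 controls, 7 and 5 after auxin and 6 to 8 in the HCT116 libraries, with VIL1, CDX1, GPA33 and LGALS4 each under 2 CPM in every HCT116 library. TOP2B itself was read at 186 and 192 CPM in the HCT116 controls and at 135 and 132 CPM in the libraries labelled TOP2B-/-, a log2 difference of -0.50 ± 0.04 (SE, edgeR adjusted p = 0.0269). A knockout need not remove nascent RNA, so this level does not check the label. In DLD-1, POLR2A was read at 281 and 179.9 CPM in the controls and at 159 and 108 CPM after auxin (log2 -0.78 ± 0.32, adjusted p = 0.0773), and the degron acts on its protein, which was not measured here. CPM, the read count per 1000000 reads, is given throughout on library sizes scaled by TMM, the trimmed mean of M-values.

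The promoters of 4 leading mitotic genes are shown first, because the elements in them are common among the members. To them were added those of CDC25C and ANLN, chosen after their values were seen, since these were the members called in HCT116. Sequences are the RefSeq windows of 300 bases on GRCh38.p14, from 250 bases before the annotated start to 50 after it, written 5′ to 3′ in the direction of the gene. Capitals mark the CHR element (TTTGAA, or TTCAAA where it lies on the other strand) and the CCAAT box (CCAAT, or ATTGG on the other strand). For genes with several windows, the one whose start is nearest the start of the counted model is shown, and for CDC25C the one farthest from it as well, 6551 bases downstream.
CCNB1, chr5:69166900-69167199, plus strand: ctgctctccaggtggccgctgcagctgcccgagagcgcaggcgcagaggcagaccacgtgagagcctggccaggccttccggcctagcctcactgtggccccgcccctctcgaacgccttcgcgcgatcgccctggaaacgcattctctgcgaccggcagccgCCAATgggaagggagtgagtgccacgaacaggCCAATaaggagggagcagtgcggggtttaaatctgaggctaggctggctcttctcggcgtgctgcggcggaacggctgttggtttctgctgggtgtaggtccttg
CDK1, chr10:60778228-60778527, plus strand: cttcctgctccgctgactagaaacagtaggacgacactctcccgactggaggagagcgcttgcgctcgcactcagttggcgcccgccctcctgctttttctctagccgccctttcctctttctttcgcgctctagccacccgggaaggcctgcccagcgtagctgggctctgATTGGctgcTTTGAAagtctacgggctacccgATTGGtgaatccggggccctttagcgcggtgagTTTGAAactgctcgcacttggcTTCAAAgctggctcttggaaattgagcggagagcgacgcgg
CDC20, chr1:43358731-43359030, plus strand: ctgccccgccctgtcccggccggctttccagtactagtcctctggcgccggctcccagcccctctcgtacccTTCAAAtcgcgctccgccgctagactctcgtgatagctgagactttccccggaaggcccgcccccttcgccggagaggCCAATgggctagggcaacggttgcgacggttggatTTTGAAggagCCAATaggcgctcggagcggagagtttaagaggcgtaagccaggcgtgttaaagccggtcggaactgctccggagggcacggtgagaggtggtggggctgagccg
PLK1, chr16:23678639-23678938, plus strand: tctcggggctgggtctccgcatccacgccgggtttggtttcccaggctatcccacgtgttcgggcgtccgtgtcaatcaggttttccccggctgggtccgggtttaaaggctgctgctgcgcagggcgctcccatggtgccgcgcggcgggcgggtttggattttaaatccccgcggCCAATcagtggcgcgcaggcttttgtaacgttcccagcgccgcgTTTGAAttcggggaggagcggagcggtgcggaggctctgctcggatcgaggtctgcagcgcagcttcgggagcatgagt
CDC25C, chr5:138338306-138338605, minus strand: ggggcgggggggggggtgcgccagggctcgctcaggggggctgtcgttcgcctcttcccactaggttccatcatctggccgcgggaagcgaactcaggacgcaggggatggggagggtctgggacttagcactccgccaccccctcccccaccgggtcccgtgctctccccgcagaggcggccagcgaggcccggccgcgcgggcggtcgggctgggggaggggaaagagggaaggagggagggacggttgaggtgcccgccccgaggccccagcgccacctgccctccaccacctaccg
CDC25C, chr5:138331755-138332054, minus strand: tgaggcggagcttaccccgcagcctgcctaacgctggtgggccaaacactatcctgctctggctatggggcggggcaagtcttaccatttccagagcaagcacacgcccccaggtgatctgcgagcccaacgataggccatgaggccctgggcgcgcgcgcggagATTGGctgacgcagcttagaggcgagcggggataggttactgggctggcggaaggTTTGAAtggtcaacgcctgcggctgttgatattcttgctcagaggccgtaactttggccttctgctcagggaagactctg
ANLN, chr7:36389612-36389911, plus strand: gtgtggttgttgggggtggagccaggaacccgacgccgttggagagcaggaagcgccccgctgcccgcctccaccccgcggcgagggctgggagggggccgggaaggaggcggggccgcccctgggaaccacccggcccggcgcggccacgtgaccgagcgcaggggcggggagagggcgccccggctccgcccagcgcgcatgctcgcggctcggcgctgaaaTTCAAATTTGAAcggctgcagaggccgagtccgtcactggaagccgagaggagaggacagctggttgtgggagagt

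The CDK1 window held 3 CHR and 2 CCAAT matches and the CDC20 window held 2 of each. PLK1 held 1 of each, and its CHR began 29 bases before the start. The CCNB1 window held 2 CCAAT boxes and no TTTGAA. In CDC25C the window at the start of the counted model held none of these letters, whereas the window 6551 bases downstream held 1 CHR, which began 30 bases before its start, and 1 CCAAT box. ANLN held 2 CHR matches side by side on opposite strands and no CCAAT box.

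Windows were found for 42 of the 46 members, 51 windows in all, and BIRC5, BUB3, FOXM1 and TTK had none in the table. The CHR letters, searched on both strands, were present in 32 of the 42 genes (76.2%), compared with 15.6% of the 13974 genes of the count table that had a window, where any window of a gene counted. CCAAT, also on both strands, was present in 31 of the 42 (73.8%), compared with 42.3% of those genes. Counted by window, the CHR was in 68.6% of the 51 member windows and 15.2% of all 35116 windows, and CCAAT in 68.6% and 34.6%. Both stood in 1 window for 24 genes (57.1%), compared with 6.53% of genes with a window, and the 2 elements shared bases in 2 member windows. The variant TTCGAA was present in 2 of the 42 genes (4.76%), compared with 2.16% of genes with a window. Of 46 CHR matches, 35 lay on the strand of the gene. A CHR that began between 60 bases before and 20 bases after the start, a span chosen after the positions were seen, was present in 25 of the 42 genes, compared with 4.34% of genes with a window. A match of letters is a description and not a bound site.

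**Figure D1:**
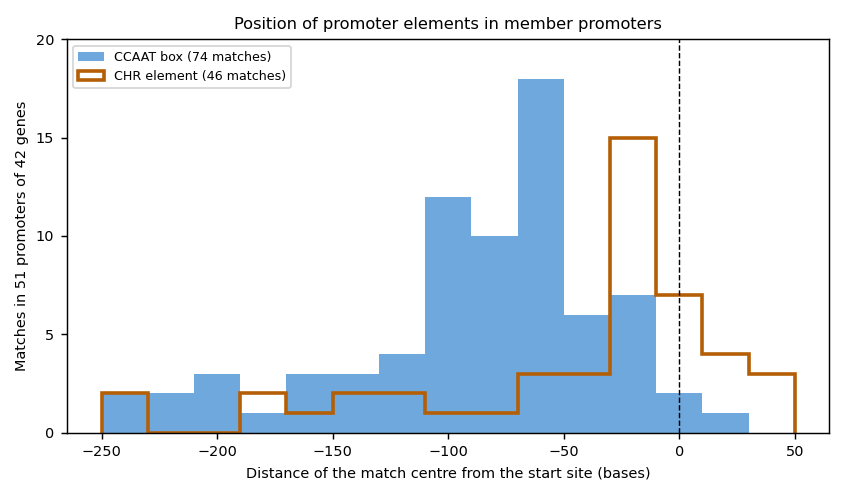
Number of matches in bins of 20 bases (vertical axis) by distance of the match centre from the start site in bases (horizontal axis), for 74 CCAAT boxes (filled) and 46 CHR elements (line) in 51 promoter windows of 42 member genes, where windows of 1 gene that overlap count a shared match in each. CCAAT boxes lie mostly farther upstream than CHR elements, and 29 of the 46 CHR matches begin between -60 and 20.

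The members were among the more transcribed genes of both lines. By CPM per kb in the controls, the median member stood at the 90.5th percentile of genes tested in both DLD-1 and HCT116, and 39 and 40 of the 46 lay above the 75th percentile. Their models are 4.25 to 92.6 kb long, with a median of 32.6 kb against 23.6 kb for all models, and lie on 16 chromosomes. Introns were counted, so a value is a density over the whole gene. Per kb in the DLD-1 controls, MKI67, the antigen behind the Ki-67 proliferation stain, was highest at 37.4 CPM per kb and the kinetochore subunit SPC25 lowest at 0.230. Of the 46, 8 overlap another model by between 63 and 3709 bases, PTTG1 has a close copy in PTTG2, and use of strand in counting is not given, so reads of these may be shared or split.

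In DLD-1 cells given auxin, nascent RNA of 42 of the 46 genes was called lower and none higher, by edgeR at an adjusted p of 0.05. Of all 17625 genes tested, 35.0% were called lower and 32.2% higher. The median log2 fold change was -1.66 over the members, a 3.17-fold fall, and -0.06 over all genes. Fold changes here and below are relative, since every scaling used sets a gene against the other reads of its library. A change shared by most genes would not be seen in them. At an unadjusted p of 0.05, 43 members were lower and 0 higher, beside 6565 and 6295 of the 17625 genes. DESeq2 also called 42 lower and 0 higher, beside 6096 and 6143 of 18380 genes. Both auxin libraries lay under both controls for 44 members, compared with 46.3% of all genes, and above both for 1, BIRC5, compared with 44.7%. The falls of greatest size were those of ASPM, CCNB1, CDC20 and PLK1, and the genes not called were MAD2L1, BIRC5, CENPA and SMC2.

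**Figure D2:**
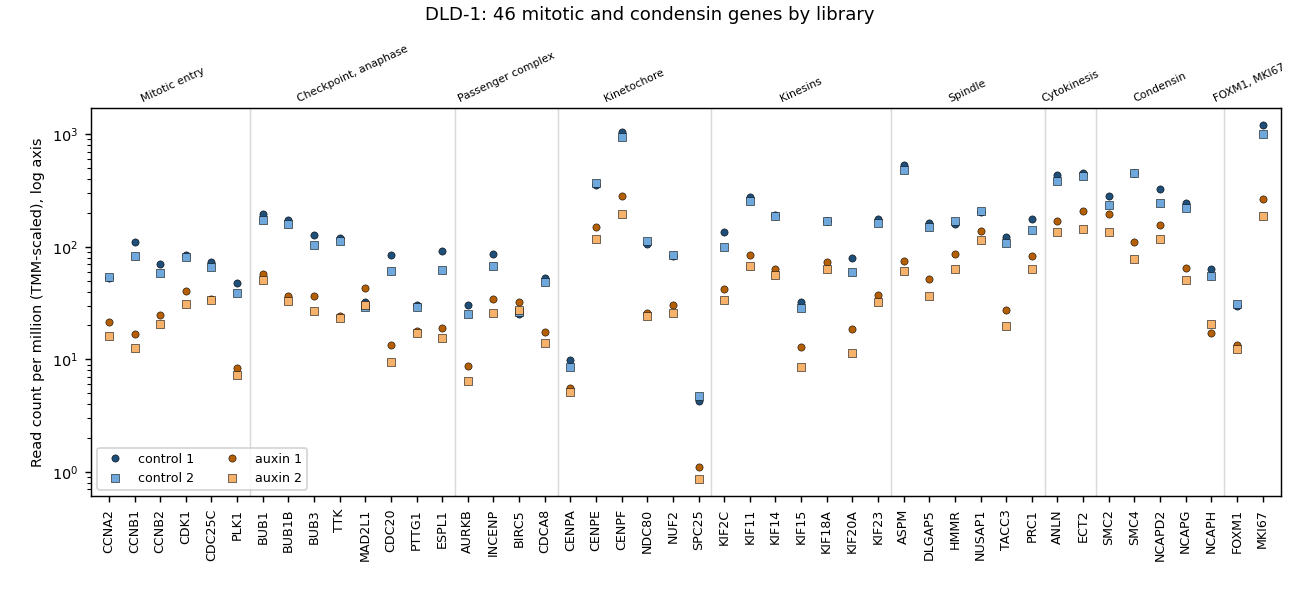
CPM on a log axis (vertical) of each of the 46 genes (horizontal, by role) in the 4 DLD-1 libraries, controls in blue and auxin in orange. The auxin points lie under the control points for 44 genes, with MAD2L1 and BIRC5 as the exceptions.

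All 6 cyclins and kinases of mitotic entry were called lower, with log2 fold changes from -2.71 to -1.04. CCNB1, the cyclin that activates CDK1 at the onset of mitosis, was read at 109 and 82.5 CPM in the controls and at 16.7 and 12.5 CPM after auxin. Its libraries did not overlap between groups, and it fell 6.56-fold (log2 -2.71 ± 0.26, SE, edgeR adjusted p = 0.00421). CDK1, the mitotic kinase itself, was read at 85.3 and 81.5 CPM in the controls and at 40.2 and 31.0 CPM after auxin. That was a smaller fall without overlap (log2 -1.23 ± 0.20, adjusted p = 0.0101). CDC25C, the phosphatase that frees CDK1 from its inhibitory phosphates, changed least of the 6, from 73.6 and 65.8 CPM to 34.4 and 33.5 CPM (log2 -1.04 ± 0.17, adjusted p = 0.00990). PLK1, the Polo-like kinase of mitotic entry and spindle assembly, fell 5.54-fold, while the cyclins CCNA2 and CCNB2 fell by 1.49 and 1.51 on the log2 scale.

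Of the 8 genes of the spindle checkpoint and anaphase, 7 were called lower, with a median log2 fold change of -2.01 over the 8. CDC20, which switches on the anaphase-promoting complex once chromosomes are attached, was read at 85.1 and 61.0 CPM in the controls and at 13.4 and 9.52 CPM after auxin. It fell 6.36-fold with no overlap between groups (log2 -2.67 ± 0.29, adjusted p = 0.00476). MAD2L1, the checkpoint protein that inhibits CDC20, was read at 32.5 and 29.5 CPM in the controls and at 43.1 and 30.4 CPM after auxin. Its groups overlapped and it was not called (log2 0.25 ± 0.24, adjusted p = 0.397). The checkpoint kinases TTK, BUB1B and BUB1 and their partner BUB3 fell by 2.29, 2.27, 1.76 and 1.86 on the log2 scale. Separase, ESPL1, which cuts the cohesin rings, fell by 2.16, and its inhibitor securin, PTTG1, by 0.78 (adjusted p = 0.0278).

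In the chromosomal passenger complex, which corrects faulty attachments and guides cytokinesis, 3 of 4 genes were called lower. AURKB, its kinase, was read at 30.3 and 25.1 CPM in the controls and at 8.71 and 6.40 CPM after auxin, without overlap (log2 -1.87 ± 0.28, adjusted p = 0.00868). BIRC5, which encodes survivin, was read at 25.4 and 26.3 CPM in the controls and at 32.4 and 27.5 CPM after auxin. Both auxin libraries lay above both controls, by less than the test could call (log2 0.21 ± 0.20, adjusted p = 0.373). The scaffold INCENP fell by 1.35 and the targeting subunit CDCA8 by 1.69 on the log2 scale.

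Of the 6 genes of the centromere and kinetochore, 5 were called lower. SPC25, a subunit of the NDC80 complex that grips microtubules, was the lowest member in both lines, at 4.24 and 4.75 CPM in the controls and 1.10 and 0.872 CPM after auxin. Its groups did not overlap (log2 -2.18 ± 0.43, adjusted p = 0.0162), and both auxin values lay under the background density, at 0.198 and 0.109 times it. CENPA, the histone variant that marks centromeres, was read at 9.88 and 8.64 CPM in the controls and at 5.57 and 5.16 CPM after auxin, and was not called although its groups did not overlap (log2 -0.79 ± 0.31, adjusted p = 0.0717). NDC80 and NUF2, which pair in the same complex, fell by 2.12 and 1.57 on the log2 scale. The large kinetochore proteins CENPF and CENPE fell by 2.05 and 1.43.

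All 7 kinesins, motors that move along microtubules, were called lower, with a median log2 fold change of -1.67. KIF23, which bundles the central spindle, was read at 177 and 161 CPM in the controls and at 37.1 and 32.3 CPM after auxin (log2 -2.29 ± 0.17, adjusted p = 0.00421). KIF18A, which damps chromosome movement at the metaphase plate, was read at 170.5 and 169.6 CPM in the controls and at 73.4 and 63.5 CPM after auxin (log2 -1.31 ± 0.16, adjusted p = 0.00578). Neither gene overlapped between groups. KIF20A, KIF11, KIF14, KIF2C and KIF15 fell by 2.22, 1.80, 1.67, 1.63 and 1.52 on the log2 scale. KIF15, like SPC25, lay under background in both auxin libraries, at 0.492 and 0.228 times it.

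All 6 other spindle proteins were called lower, over the widest range of any role group in which every gene was called. ASPM, a spindle-pole protein, was read at 527 and 476 CPM in the controls and at 74.2 and 60.5 CPM after auxin. It fell 7.45-fold, more than any other member (log2 -2.90 ± 0.20, adjusted p = 0.00421). NUSAP1, which bundles microtubules around chromatin, was read at 206 and 207 CPM in the controls and at 139 and 114 CPM after auxin, a 1.63-fold fall without overlap (log2 -0.71 ± 0.17, adjusted p = 0.0261). TACC3, DLGAP5, HMMR and PRC1 fell by 2.28, 1.83, 1.13 and 1.11. Both genes of cytokinesis were called lower as well. ANLN, the scaffold of the contractile ring, was read at 431 and 386 CPM in the controls and at 168 and 135 CPM after auxin (log2 -1.43 ± 0.19, adjusted p = 0.00693). ECT2, which activates RhoA at the cell equator, was read at 449 and 425 CPM in the controls and at 206 and 145 CPM after auxin (log2 -1.32 ± 0.23, adjusted p = 0.0123). Neither overlapped between groups.

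Condensin compacts chromosomes with a pair of SMC ATPases and 3 further subunits, and 4 of the 5 genes were called lower. SMC4 was read at 455 and 456 CPM in the controls and at 111 and 77.3 CPM after auxin (log2 -2.28 ± 0.24, adjusted p = 0.00451). SMC2, its partner in the same ring, was read at 282 and 237 CPM in the controls and at 196 and 134 CPM after auxin, and was not called (log2 -0.65 ± 0.25, adjusted p = 0.0658). The auxin libraries lay under the controls in both genes. NCAPG and NCAPH fell by 2.03 and 1.66 on the log2 scale and NCAPD2, the other HEAT-repeat subunit, by 1.06. FOXM1, the forkhead factor that activates many of these genes, was read at 29.8 and 31.0 CPM in the controls and at 13.5 and 12.4 CPM after auxin (log2 -1.23 ± 0.21, adjusted p = 0.0114). MKI67, which coats mitotic chromosomes, was read at 1197 and 1010.2 CPM in the controls and at 266 and 188 CPM after auxin (log2 -2.28 ± 0.26, adjusted p = 0.00510). Both were called lower with no overlap.

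The size of these falls moved with background and scaling. The median member lay at 174 and 43.2 times background in the DLD-1 controls and at 5.10 and 2.69 times after auxin, where 15 members were under 2 times background in the second auxin library. With background subtracted from the counts, 34 members were called lower and 4 higher, against 32.0% lower and 27.7% higher of 14333 genes, and the median member was at -0.96 with all genes at -0.17. The 4 were MAD2L1 (log2 1.47), BIRC5 (1.37), SMC2 (0.51) and NUSAP1 (0.43), so that SMC2 and NUSAP1 turned direction. PTTG1 (0.38), NCAPD2 (0.13) and PRC1 (0.006) also turned from below 0 to above it and were not called, which put 7 members above 0 in place of 2. CCNA2, CDK1, HMMR and ECT2 stayed below 0 and were no longer called, and SPC25 and KIF15 had 0 counts left in both auxin libraries. Scaling by library totals alone moved the median of all genes to 0.57 and of the members to -1.02, a gap of -1.60 in both scalings. It called 35 members lower and 2 higher (MAD2L1 and BIRC5), against 19.2% lower and 42.8% higher of all genes. A DESeq2 fit with 1 RUVs factor, which takes up variation seen between replicates, called 16 members lower, against 9.07% of all genes. ASPM, CCNB1, CDC20, PLK1, SMC4 and MKI67 stayed among them. The medians of that fit were -1.33 over the members and -0.58 over all genes.

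Markers of cell types foreign to these cultures moved with auxin as well. The summed level of 10 leukocyte, stromal and endothelial markers was 11.4 and 27.9 CPM in the DLD-1 controls and 161 and 158 CPM after auxin, and 9 of the 10 were called higher by edgeR. At most 2 of the 10 lay over 2 times background in any DLD-1 library, and none of the 10 was at 0. In HCT116 the sum was 31.2 to 48.4 CPM, most of it COL1A1, with CD3E at 0 in control 2. There 2 and 5 of the 10 lay over 2 times background in controls 1 and 2, and 2 and 1 in the libraries labelled TOP2B-/-. The part of these markers in the members' result was not tested.

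In HCT116, libraries labelled TOP2B-/- differed little from TOP2A-mAID controls in these genes. By edgeR, 1 of the 46 was called lower (ANLN) and 1 higher (CDC25C), beside 1.66% lower and 1.75% higher of 15273 genes tested. The median log2 fold change was -0.06 over the members and 0.03 over all genes. By edgeR, 12 members had an unadjusted p under 0.05 (7 lower and 5 higher), beside 3492 of the 15273 genes (1686 lower and 1806 higher). Both libraries labelled TOP2B-/- lay under both controls for 21 members and above both for 10, compared with 27.6% of all genes in each direction. DESeq2 called 7 members lower (CDC20, INCENP, KIF2C, KIF20A, ANLN, NCAPD2 and MKI67) and 2 higher (CDC25C and KIF18A), against 5.88% and 4.37% of genes.

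**Figure D3:**
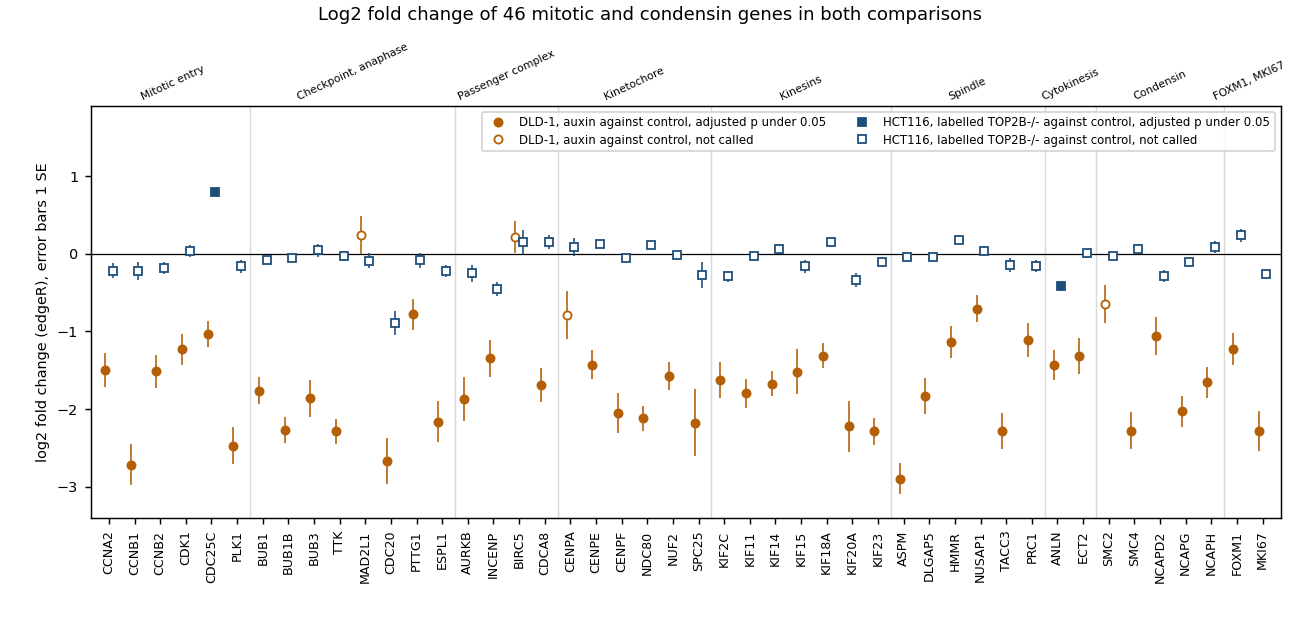
Log2 fold change (vertical axis, bars 1 SE) of each of the 46 genes (horizontal, by role) in DLD-1 (orange circles) and HCT116 (blue squares), filled where the edgeR adjusted p is under 0.05. In DLD-1, 42 genes are filled below 0, and in HCT116 only CDC25C and ANLN are filled.

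CDC25C was read at 29.5 and 30.5 CPM in the controls and at 51.6 and 52.8 CPM in the libraries labelled TOP2B-/-. The groups lay well apart, and the gene rose to 174% of control (log2 0.80 ± 0.05, adjusted p = 0.0254). Its model overlaps FAM53C by 821 bases on the opposite strand, and FAM53C was at 41.8 and 48.3 CPM in the controls and at 43.1 and 39.9 CPM in the other group (log2 -0.12 ± 0.10). ANLN was read at 791 and 857 CPM in the controls and at 614 and 626 CPM in the libraries labelled TOP2B-/-. It fell to 75.2% of control without overlap, close to the threshold (log2 -0.41 ± 0.05, adjusted p = 0.0497). In DLD-1 both genes had fallen after auxin.

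Among the members not called, CDC20 had the largest difference in HCT116. It was read at 153 and 189 CPM in the controls and at 102 and 82.7 CPM in the libraries labelled TOP2B-/-, without overlap (log2 -0.89 ± 0.16, adjusted p = 0.0761). INCENP was next, at 162 and 183 CPM against 132 and 120.2 CPM (log2 -0.46 ± 0.09, adjusted p = 0.0836). KIF20A, a kinesin of the central spindle, was at 98.9 and 115 CPM against 86.7 and 82.0 CPM (log2 -0.34 ± 0.09, adjusted p = 0.138). All 3 lay lower in both libraries labelled TOP2B-/- than in both controls. KIF2C, which depolymerises microtubules at centromeres, was at 185 and 207 CPM against 163 and 157 CPM (log2 -0.29 ± 0.07, adjusted p = 0.120). NCAPD2 was at 388 and 433 CPM against 350.0 and 323 CPM (log2 -0.29 ± 0.08, adjusted p = 0.146). SPC25, at 5.08 and 5.19 CPM against 4.25 and 4.24 CPM, had the widest error of these (log2 -0.27 ± 0.17, adjusted p = 0.410).

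MKI67 was at 1099 and 1152 CPM in the HCT116 controls and at 940.1 and 936 CPM in the libraries labelled TOP2B-/-, a small difference with tight replicates (log2 -0.26 ± 0.04, adjusted p = 0.0659). AURKB was at 60.3 and 73.0 CPM against 56.9 and 54.9 CPM (log2 -0.25 ± 0.11, adjusted p = 0.272), and CCNB1 at 161 and 197 CPM against 158 and 149 CPM (log2 -0.22 ± 0.11, adjusted p = 0.339). In these 3 genes the groups also did not overlap. FOXM1 was at 31.1 and 33.7 CPM against 39.7 and 36.6 CPM (log2 0.24 ± 0.08, adjusted p = 0.202), the largest value above 0 after CDC25C. CDK1 was at 137 and 158 CPM against 152 and 149 CPM (log2 0.04 ± 0.08, adjusted p = 0.803), and SMC4 at 384 and 404 CPM against 408 and 417 CPM (log2 0.06 ± 0.05, adjusted p = 0.469). CDK1 overlapped between groups, and SMC4 lay slightly above both controls in both libraries.

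**Figure D4:**
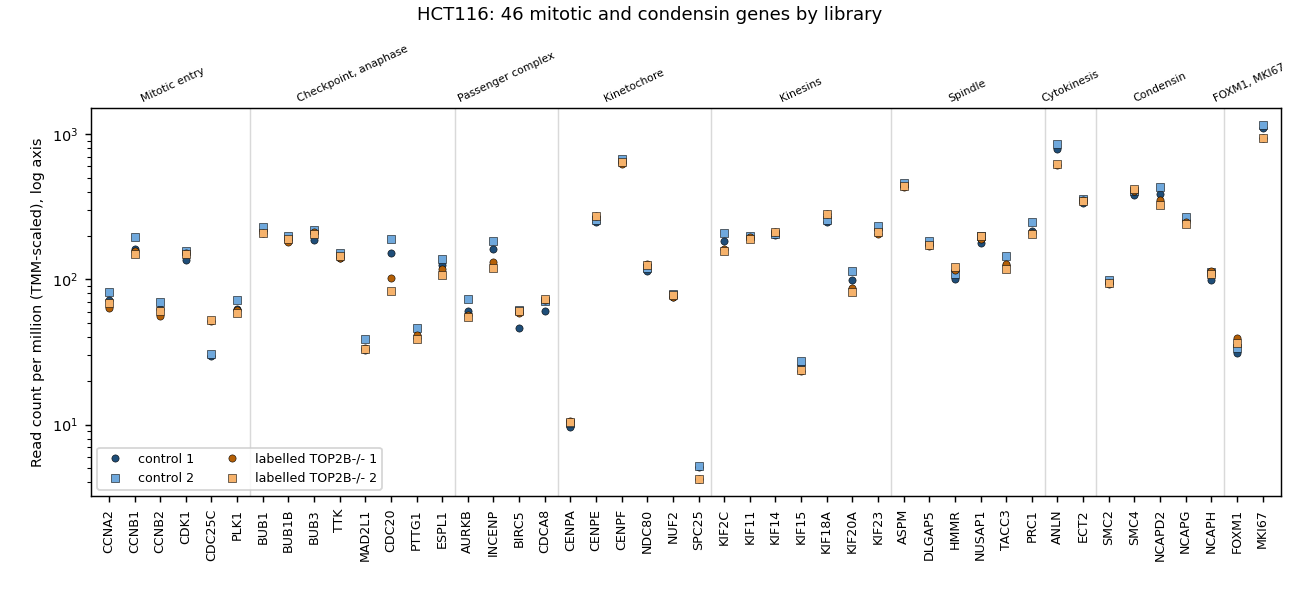
CPM on a log axis (vertical) of each of the 46 genes (horizontal, by role) in the 4 HCT116 libraries, controls in blue and libraries labelled TOP2B-/- in orange. Points of the 2 groups sit close together for most genes, and CDC25C and CDC20 show the widest gaps.

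By role, the medians in HCT116 ran from -0.20 over the 2 genes of cytokinesis to 0.04 over the 6 of the centromere and kinetochore. The 6 genes of mitotic entry had a median of -0.17, the 7 kinesins -0.11 and the 5 condensin subunits -0.03. Apart from ANLN and CDC25C, 0 genes of any role group were called by edgeR.

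These small differences were read against controls that differed from each other. Control 2 read above control 1 in all 46 members, compared with 60.1% of all genes tested, by a median of 0.11 on the log2 scale. That gap was wider in shorter genes, with a Spearman correlation of -0.73 with model length over the 46 genes, which share their libraries and are given no p. Each library labelled TOP2B-/- lay under control 1 in 24 members, and under control 2 in 35 and 36. Without control 1, 10 members were called lower and 1 higher, against 8.32% and 7.68% of genes, and without either library labelled TOP2B-/- none was called. Each of these fits has 1 library in 1 group, which is assumed to vary like the other group, so that the spread comes from a single pair of libraries. Those 10 were CCNB1, CDC20, AURKB, INCENP, KIF2C, KIF20A, PRC1, ANLN, NCAPD2 and MKI67. The fits without TOP2B-/- library 1 or 2 called no gene of the whole table. Their lack of member calls therefore does not set the members apart from other genes. The member medians of these fits were -0.09 and -0.07 on the log2 scale, beside 0.006 and 0.004 over all genes. Replicates differed in DLD-1 as well. There control 2 read above control 1 in 10 members, compared with 57.1% of all genes tested, with a median difference of -0.14 on the log2 scale. Auxin library 2 read above auxin library 1 in 1 member, with a median difference of -0.32.

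**Figure D5:**
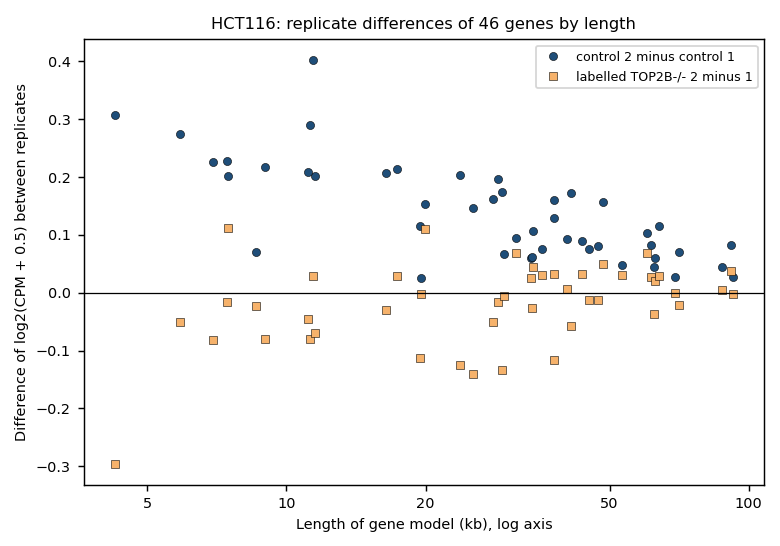
Difference of log2(CPM + 0.5) between the 2 replicates of a group (vertical) by length of the gene model in kb on a log axis (horizontal), for the 46 genes in HCT116. All 46 control differences (circles) lie above 0 and are larger for shorter genes, while the differences between libraries labelled TOP2B-/- (squares) lie on both sides of 0, with library 2 above library 1 in 19 genes.

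Members with and without the promoter letters had similar medians in DLD-1, while in HCT116 the CHR medians lay further apart than those of the CCAAT box. In DLD-1 the median log2 fold change was -1.62 over the 32 genes with the CHR letters TTTGAA and -1.71 over the 10 without them. Variants such as TTCGAA, found in BUB1, were not counted as a CHR in this split. The medians were -1.67 and -1.63 over the 31 and 11 genes with and without a CCAAT box. The corresponding HCT116 medians were -0.05 and -0.18 for the CHR and -0.08 and -0.05 for the CCAAT box. Between gene length and log2 fold change there was a Spearman correlation over the 46 genes of 0.03 in DLD-1 and 0.30 in HCT116. With control CPM per kb it was -0.30 and -0.56, where the control level also enters the fold change. These are descriptions over genes of the same libraries.

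Genes that work beside the members were read in the same fits. The shares of all genes given above for each DLD-1 fit apply to these lists too. Of 36 further mitotic genes, 30 were called lower and 0 higher in DLD-1, with a median log2 fold change of -1.45. By edgeR 31 of them were lower and 0 higher at an unadjusted p of 0.05, and DESeq2 called 30 and 0. With background subtracted 21 were called lower and 6 higher, with library totals alone 24 and 2, and with 1 RUVs factor 9 and 0. SKA1, which helps kinetochores hold on to microtubules, had the lowest fitted value of the list, from 4.69 and 4.68 CPM to 0.638 and 0.291 CPM (log2 -3.30 ± 0.55, adjusted p = 0.0111). Its auxin values were counts of 11 and 4, at 0.117 and 0.0372 times background. All 4 genes of condensin II and its regulators were called lower, with MCPH1, which restrains condensin II in interphase, falling from 240.1 and 231 CPM to 78.6 and 85.8 CPM (log2 -1.52 ± 0.16, adjusted p = 0.00446), but with background subtracted none of the 4 was called, with library totals alone 1 and with 1 RUVs factor 1. MCPH1 lay at 1.17 and 0.887 times background after auxin. Of 15 subunits and activators of the anaphase-promoting complex, 11 were called lower and 0 higher by edgeR, with 12 and 0 at an unadjusted p of 0.05 and 11 and 0 by DESeq2. The count lower was 8 with background subtracted, 9 with library totals alone and 3 with 1 RUVs factor, with 0 higher in each. CDC27 fell from 284 and 284 CPM to 45.4 and 47.0 CPM (log2 -2.62 ± 0.16, adjusted p = 0.00421).

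The regulators behaved less evenly. Of 15 regulators (MuvB subunits, B-MYB, pocket proteins, their E2F and DP partners and NF-Y), 10 were called lower and 1 higher in DLD-1, with a median log2 fold change of -0.89. With background subtracted 7 were called lower and 1 higher (median -0.61), with library totals alone 4 and 1 (median -0.26), and with 1 RUVs factor 2 and 0. NFYC, a subunit of the CCAAT-binding factor, fell from 136 and 125 CPM to 28.6 and 36.8 CPM (log2 -1.998 ± 0.199, adjusted p = 0.00426), to 1.26 and 1.13 times background. MYBL2, which encodes B-MYB, rose from 23.7 and 24.5 CPM to 38.1 and 33.6 CPM (log2 0.57 ± 0.19, adjusted p = 0.0490). In HCT116, 2 of the 36 mitotic genes and 2 of the 15 regulators were called lower and none of either list higher by edgeR. Of all genes, 1.66% were called lower and 1.75% higher. At an unadjusted p of 0.05, 8 and 3 were lower and 6 and 2 higher, beside 1686 lower and 1806 higher of 15273 genes. DESeq2 called 6 and 2 lower and 2 and 2 higher, beside 5.88% lower and 4.37% higher of all genes. UBE2C, the ubiquitin-conjugating enzyme that serves the anaphase-promoting complex, fell from 57.8 and 67.1 CPM to 37.1 and 34.8 CPM (log2 -0.80 ± 0.09, adjusted p = 0.0411). MYBL2 fell from 89.5 and 94.8 CPM to 63.5 and 59.3 CPM (log2 -0.58 ± 0.06, adjusted p = 0.0339). All 4 of the called genes (with TPX2 and RBL1) lie on chromosome 20, where 133 of 405 genes tested were called lower (32.8%), while none of the 46 members lies there. No subunit of the anaphase-promoting complex or of condensin II was called in HCT116 by edgeR, with 2 and 0 at an unadjusted p of 0.05 and 2 and 0 called by DESeq2.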

How the data were processed

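Nascent RNA of 8 factory-seq libraries was deposited as raw read counts per gene model. The authors counted reads over 18638 models, introns included, and the counted length is shorter than the span in 1443 models, 3 of them members. The submitters' processing notes name STAR, DESeq2 and hg38, and the sources used here do not give the counter's settings or its use of strand. The authors' tables of fold changes and p-values were not used.

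The members and all lists were chosen with earlier results of these data known. Each cell line was fitted alone on its 4 libraries (2 residual degrees of freedom) by edgeR's quasi-likelihood test with TMM scaling and Benjamini-Hochberg adjustment over all genes tested, called at 0.05. SEs were derived from the quasi-likelihood F. Given in full were CCNB1, CDK1, FOXM1, MKI67 and SMC4, the members of largest and smallest absolute log2 fold change of each role in DLD-1, the 10 of largest change in HCT116 and, of other lists, the called gene of largest change in each direction. TOP2B, POLR2A, FAM53C and genes named only by a call or its loss fall outside this rule and were named after their values were seen. Background was the read density of 3095 models of at least 5000 bases that were among the 20% with the lowest density in the other line's controls. Alternatives were DESeq2, 1 RUVs factor, other scalings and filters, subtracted background, thinning, all 8 libraries in 1 fit, a replicate block and each library left out. Only the edgeR fit was tested on simulated counts, in which few genes changed and background did not rise. The other fits and counts were not tested in this way. Total counts of 10739622 to 62626875 set the counting precision. R 4.3.3, edgeR 4.0.16, DESeq2 1.42.0, Python 3.11.15, pandas 2.3.3, scipy 1.17.1 and matplotlib 3.10.9 were used.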

Additional observations from a re-analysis of the deposited data

How the results depend on the processing

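In DLD-1, 42 of the 46 genes were called lower (35.0% of all genes), and 16 with 1 RUVs factor (9.07%). With a replicate block the count was 43, where 12963 of 17625 genes were called in either direction. Leaving out 1 library gave member medians of -1.75 to -1.56, with all genes at -0.08 to -0.02. The count of 0 higher (32.2% of all genes) became 4 with background subtracted (27.7%) and 2 with library totals alone (42.8%). With a mean CPM of at least 5 it was 2, beside 39 lower, where 8817 of 13446 genes were called in either direction. SMC2 reversed to 0.027 with the RUVs factor and to 0.51 with background subtracted, and with background subtracted NUSAP1 reversed to 0.43, PTTG1 to 0.38, NCAPD2 to 0.13 and PRC1 to 0.006. The cause was not tested. In HCT116, 1 gene was called lower and 1 higher, beside 1.66% and 1.75% of all genes. The count lower was 7 with DESeq2 (5.88% of genes) and 7 with background subtracted (8.71%). It was 4 with the RUVs factor (3.39%) and 2 with library totals alone (2.35%). With a mean CPM of at least 5 it was 5, where 1221 of 11174 genes were called in either direction. It was 0 without chromosome 20 (229 of 14868 called in either direction) and with no filter (424 of 18041). It was also 0 with all 8 libraries (5 of 17800) and with a replicate block (0 of 15273), fits that called few genes or none. The count higher was 2 with DESeq2 (4.37%) and with background subtracted (1190 of 13561 genes), and 0 with all 8 libraries or with a replicate block. Leaving out 1 library gave 0 to 10 lower and 0 to 1 higher, with 10 lower without control 1, where the lone library is assumed to vary like the other group. The fits without a library labelled TOP2B-/- called no gene of the whole table, so their lack of member calls is not particular to the members. CDK1 reversed to -0.02 without TOP2B-/- library 1 and to -0.069 without control 1 (0.075 without control 2). Replicate numbers share no stated batch, and their differences correlated at 0.58 in DLD-1 and -0.83 in HCT116. A crossed pairing in HCT116, chosen after seeing the data, called 4 lower and 1 higher, where 1808 of 15273 genes were called in either direction.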
